A study of Saccharomyces cerevisiae with 24 samples.

Results

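The genes described here encode assembly factors of the large (60S) ribosomal subunit of *Saccharomyces cerevisiae*, proteins that build the subunit but are not part of the mature ribosome. They were picked by gene name, by a rule that uses no measured value, and the 57 genes were found as 57 of the 6307 ORF spots on the array. Transcript ratios were measured on 24 two-color spotted arrays, 2 dye-reversed arrays for each of 12 comparisons. All strains were BY4741 (*MATa ura3Δ0 leu2Δ0 his3Δ1 met15Δ0*) or a deletion made in it with the *kanR* marker, so controls and deletion strains shared the 4 auxotrophic alleles. Each deletion strain was the only one for its gene, and neither a rescued strain nor a second clone is named in the labels. In 2 comparisons, *med20Δ* or wild-type cells treated with rapamycin (0.2 µg/ml, 1 h) were set against untreated cells of the same strain. In 7 comparisons, *med20Δ* was set against wild-type: untreated, after the same rapamycin treatment, after tunicamycin (2.5 µg/ml, 90 min), after chlorpromazine (CPZ, 1 h), in post-diauxic cultures (48 h), after a shift from 29 to 39°C for 20 min, and after 0.32 mM H2O2 for 30 min. The last 3 comparisons set *med16Δ*, *med31Δ* and *cycCΔ* against wild-type, all after rapamycin.

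A large subunit begins as a precursor RNA in the nucleolus. Early factors fold and compact it, later factors cut the internal spacer (ITS2) and dock the 5S RNA, GTPases and AAA ATPases then remodel the particle, and export factors carry it to the cytoplasm, where the last factors are stripped off. In yeast the genes for these factors belong to the ribosome biogenesis (*Ribi*) regulon, which is transcribed while the TOR kinase is active. Rapamycin inhibits that kinase. Mediator is the coactivator complex that links transcription factors to RNA polymerase II. Med20 is a subunit of its head, Med31 of its middle and Med16 of its tail, and cyclin C (*SSN8*) belongs to its kinase module.

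A value below is the log2 ratio of the deletion strain to wild-type, or of treated to untreated cells, given for the arrays of replicate 1 and replicate 2 and as their mean. The dyes were reversed between the 2 arrays, so the spread within a pair holds the dye effect as well as array error. The 2 arrays were counted as 1 replicate of each comparison, and no p-value is given. A gene was counted as lowered or raised when its mean passed 2-fold, which is a log2 ratio of 1 in size. Ratios are relative to the other transcripts of the same culture, and fewer expressing cells and less RNA per cell cannot be told apart in whole cultures. Spots that carry no gene name served as background. The share of ORF spots brighter than these was 83.5 to 96.4% on the 18 *med20Δ* and wild-type arrays and 65.3 to 85.2% on the 6 *med16Δ*, *med31Δ* and *cycCΔ* arrays. The deleted genes were checked first. *MED20* was at -0.81 and -0.85 in untreated *med20Δ* over wild-type and at -0.57 and -1.20 after rapamycin, and its mean lay between -0.62 and -0.26 in the other 5 conditions. *MED16* was at -0.68 and -0.66 in *med16Δ*, *MED31* at -0.86 and -1.25 in *med31Δ*, and *SSN8* at -0.95 and -0.81 in *cycCΔ*. Each deleted gene was thus lower in its own strain on both arrays. In post-diauxic *med20Δ* over wild-type, however, the undeleted *MED16* had a lower mean (-0.39) than *MED20* (-0.31), so the check was weak there. The smallest *MED20* difference between the strains was after H2O2 (-0.38 and -0.13), so the check was weak in that condition as well. *RIX1* and *SDA1* were left out by their spot flags on the 18 *med20Δ* and wild-type arrays, and *NOC2* and *MRT4* on the other 6. This left 55 assembly genes in most comparisons, and 54 where *NOP15* (direct rapamycin comparison, H2O2) or *NSA2* (tunicamycin) lacked a value on 1 array.

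Rapamycin lowered most of the assembly genes in both strains. The median was -1.26 in *med20Δ* (-1.28 and -1.22 on the 2 arrays) and -1.04 in wild-type (-0.93 and -1.07), while the median of all genes was 0.00 in each strain. In *med20Δ*, 38 of 55 assembly genes were lowered, where 5.57% of all genes were. In wild-type, 30 of 55 were lowered, where 6.2% of all genes were. Both arrays were below 0 for 52 of 55 genes in *med20Δ* (37% of all genes) and for 50 of 55 in wild-type (39.3% of all genes). The 2-fold mark was passed on each of the 2 arrays by 33 genes in *med20Δ* (4.11% of all genes) and by 21 in wild-type (4.76% of all genes). The size of the fall depended on the background correction, and with local background subtracted the medians were -1.99 in *med20Δ* and -1.61 in wild-type. Of the 55 genes, 29 were lowered in both strains, 9 in *med20Δ* alone, 1 (*TIF6*) in wild-type alone and 16 in neither. The same split over all genes is not given here. The 9 include *RSA4*, whose wild-type value is only a bound under 2-fold, so whether it belongs to them cannot be told. The fall was also seen among genes with dim spots. In *med20Δ* the median was -1.62 for the 28 brighter genes and -1.15 for the 27 dimmer ones, and in wild-type it was -1.20 and -0.78 for the same split.

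**Figure D1:**
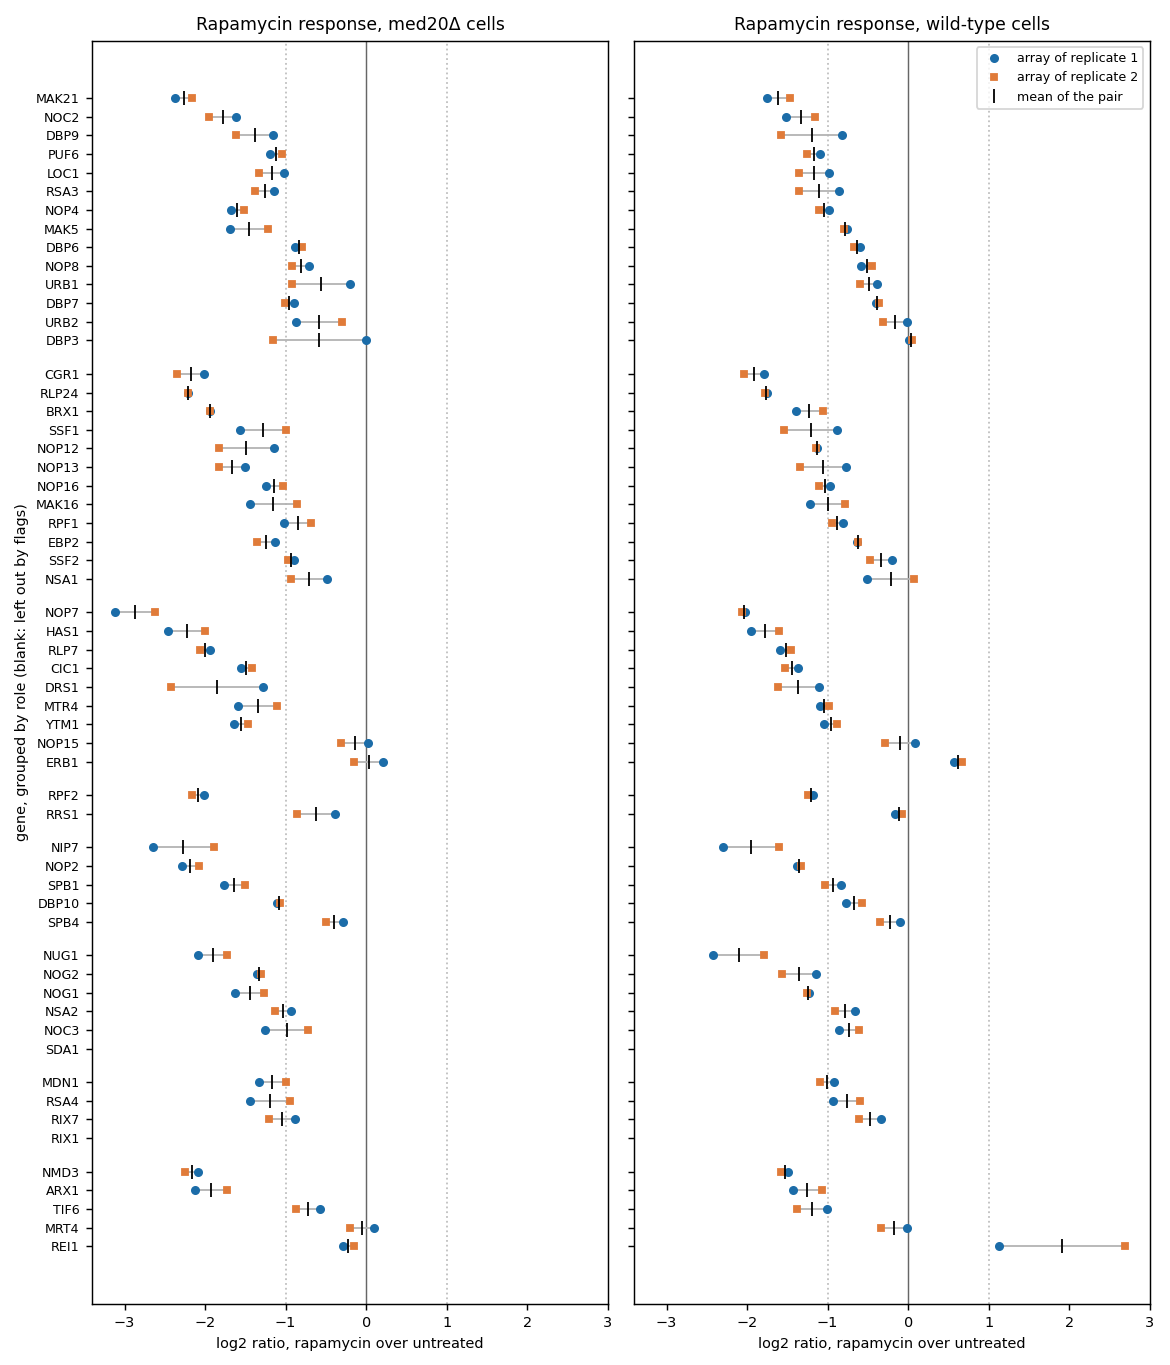
Log2 ratio of rapamycin-treated over untreated cells (horizontal axis) for each assembly gene, in *med20Δ* on the left and wild-type on the right. Circles and squares are the arrays of replicates 1 and 2, black ticks their mean, and dotted lines mark 2-fold. The genes are grouped by role from early nucleolar factors at the top to export and cytoplasmic factors at the bottom. Most genes lie left of 0 in both strains, and *REI1* in wild-type is the only gene right of the upper 2-fold line.

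Among the 14 factors of early 25S rRNA assembly, 8 were lowered in *med20Δ* (median -1.15) and 7 in wild-type (median -0.91). *MAK21* (YDR060W, Noc1), which binds the early precursor together with Noc2, was at -2.37 and -2.16 in *med20Δ* and at -1.76 and -1.47 in wild-type. Its partner *NOC2* was at -1.61 and -1.95 in *med20Δ* and at -1.51 and -1.16 in wild-type. Both were thus lowered on all 4 arrays. Several RNA helicases of the same stage moved less. *DBP7* was at -0.90 and -1.01 in *med20Δ* and at -0.40 and -0.36 in wild-type. *DBP6* was at -0.88 and -0.79 in *med20Δ* and at -0.59 and -0.68 in wild-type. The early group therefore held both strongly lowered genes and genes short of 2-fold in both strains, the last also including *URB1*, *URB2* and *DBP3*. The treated spots of *NOP8* did not exceed the unnamed spots in either strain, so it was at least 1.64-fold lower in *med20Δ* and at least 1.35-fold lower in wild-type, and whether it passed 2-fold cannot be told.

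Of the 12 factors that bind the precursor or form the scaffold of nucleolar particles, 9 were lowered in *med20Δ* (median -1.26) and 7 in wild-type (median -1.05). *CGR1* (YGL029W), needed for processing of the large-subunit precursor, was at -2.02 and -2.34 in *med20Δ* and at -1.79 and -2.04 in wild-type. *RLP24*, which resembles a ribosomal protein and holds its place in the precursor particle, was at -2.22 on both arrays in *med20Δ* and at -1.75 and -1.78 in wild-type. These were the lowest members of the group in each strain. *MAK16* (YAL025C) was at -1.44 and -0.86 in *med20Δ* and at -1.22 and -0.78 in wild-type, so its mean of -1.15 in *med20Δ* counted as lowered and its mean of -1.0 in wild-type, 1.999-fold, fell just short. *SSF1* and *SSF2* are close paralogs that can replace one another. *SSF1* was at -1.57 and -0.99 in *med20Δ* and at -0.88 and -1.54 in wild-type. *SSF2* was at -0.90 and -0.97 in *med20Δ* and at -0.20 and -0.47 in wild-type. *SSF1* was thus lowered in both strains and *SSF2* in neither, and cross-hybridization between the 2 copies could not be separated on these spots.

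The group with the lowest median in wild-type was that of ITS2 processing. Of its 9 genes, 7 were lowered in *med20Δ* (median -1.56) and 6 in wild-type (median -1.36). Nop7, Erb1 and Ytm1 form 1 complex, and the genes for its 3 subunits did not move together. *NOP7* (YGR103W) was at -3.12 and -2.63 in *med20Δ*, 7.33-fold lower on the mean, and at -2.02 and -2.06 in wild-type, 4.12-fold lower. *YTM1* (YOR272W) was at -1.64 and -1.47 in *med20Δ* and at -1.05 and -0.88 in wild-type. *ERB1* (YMR049C) was at 0.21 and -0.15 in *med20Δ* and at 0.57 and 0.67 in wild-type. The arrays of *NOP7* and *YTM1* did not overlap between the strains and were lower in *med20Δ*, and those of *ERB1* did not overlap either, being higher in wild-type and near 0 in *med20Δ*. The *ERB1* spot varied widely between array sets. In rapamycin-treated wild-type its net intensity was 5334.5 and 5424.5 beside *med20Δ*, 96 and 305.5 beside *med16Δ*, and 1469 and 597 beside *cycCΔ*. The cause was not tested, and the *ERB1* ratios are less certain for it. *HAS1*, a helicase shared by both subunit pathways, was at -2.46 and -2.0 in *med20Δ* and at -1.95 and -1.60 in wild-type. *NOP15* was near 0 in both strains, with means of -0.14 in *med20Δ* and -0.10 in wild-type.

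Rpf2 and Rrs1 act as a pair that docks the 5S RNA with its proteins onto the precursor. *RPF2* (YKR081C) was at -2.01 and -2.16 in *med20Δ*, 4.24-fold lower, and at -1.18 and -1.24 in wild-type, 2.31-fold lower. *RRS1* (YOR294W) was at -0.39 and -0.85 in *med20Δ* and at -0.17 and -0.07 in wild-type. Both were lower in *med20Δ* on both arrays than in wild-type on either, but only *RPF2* passed 2-fold. The treated *RPF2* spot in wild-type exceeded the unnamed spots on only 1 array (net intensities 75.5 and 12), so its fall there may be understated. Of the 5 methyltransferases and nearby helicases, 4 were lowered in *med20Δ* (median -1.64) and 2 in wild-type (median -0.94). *NIP7* (YPL211W), a small protein of 27S precursor processing, was at -2.65 and -1.90 in *med20Δ* and at -2.30 and -1.61 in wild-type, with overlapping arrays. *NOP2*, a 25S rRNA methyltransferase, was at -2.29 and -2.08 in *med20Δ* and at -1.39 and -1.33 in wild-type. *SPB4*, a helicase, was at -0.29 and -0.50 in *med20Δ* and at -0.10 and -0.35 in wild-type. The methyltransferase gene *NOP2* therefore differed between the strains beyond the spread of its arrays, and *NIP7* did not. The treated *NOP2* spot in wild-type, however, exceeded the unnamed spots on only 1 array (net intensities 22.5 and 20.5). When treated *med20Δ* was set against treated wild-type, *NOP2* was at 0.09 and 0.33 and so was not lower in *med20Δ*.

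The GTPases *NUG1*, *NOG1* and *NOG2* act on intermediate nuclear particles, and their values were close in the 2 strains. *NUG1* (YER006W), the lowest assembly gene in wild-type, was at -2.09 and -1.73 in *med20Δ* and at -2.42 and -1.79 in wild-type. *NOG1* (YPL093W) was at -1.63 and -1.27 in *med20Δ* and at -1.23 and -1.26 in wild-type. *NOG2* (YNR053C) was at -1.35 and -1.31 in *med20Δ* and at -1.14 and -1.56 in wild-type. The arrays of *NUG1* and *NOG2* overlapped between the strains, and those of *NOG1* lay slightly lower in *med20Δ*. In treated cells *NOG2* did not exceed the unnamed spots on any array, so it was at least 2.46-fold lower in *med20Δ* and at least 2.30-fold lower in wild-type. These bounds set the mean of the untreated channel against the higher of the dim spot and the dimmest level above the unnamed spots. Of the 3 measured AAA ATPases and partners, all 3 were lowered in *med20Δ* and 1, *MDN1* (YLR106C), in wild-type. Mdn1 pulls assembly factors off the precursor and was at -1.33 and -1.0 in *med20Δ* and at -0.92 and -1.10 in wild-type. *RSA4* (YCR072C), whose protein Mdn1 acts on, was at -1.45 and -0.95 in *med20Δ* and at -0.93 and -0.59 in wild-type, and its treated channel did not exceed the unnamed spots in wild-type. It was thus at least 1.63-fold lower in wild-type, and whether it passed 2-fold there cannot be told.

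The 5 factors of export and cytoplasmic maturation were the least uniform. *NMD3* (YHR170W), the export adaptor of the large subunit, was at -2.09 and -2.25 in *med20Δ* and at -1.49 and -1.58 in wild-type. *ARX1* (YDR101C), a second export factor, was at -2.13 and -1.72 in *med20Δ* and at -1.43 and -1.07 in wild-type. Both export factors were lower in *med20Δ* on both arrays than in wild-type on either. *TIF6* (YPR016C), the factor that keeps the new subunit from joining the small one, went the other way, at -0.57 and -0.87 in *med20Δ* and at -1.01 and -1.38 in wild-type. It was the only assembly gene with both *med20Δ* arrays above both wild-type arrays. *REI1* (YBR267W), which releases Arx1 in the cytoplasm, was at -0.29 and -0.16 in *med20Δ* and at 1.13 and 2.69 in wild-type. It was the only assembly gene raised by rapamycin, 3.76-fold in wild-type (3.94% of all genes were raised there) and none in *med20Δ* (3.19% of all genes). *MRT4* (YKL009W), a nucleolar factor that resembles the stalk protein P0 and is later replaced by it, had means of -0.05 in *med20Δ* and -0.18 in wild-type from spots at or near the level of the unnamed ones.

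The response of each gene was then set against that of the other strain. It was lower in *med20Δ* for 49 of 55 assembly genes, where it was lower for 2836 of 5707 genes over the whole array. The median difference (*med20Δ* minus wild-type) was -0.42 for the assembly genes and 0.00 over all genes. Both *med20Δ* arrays lay below both wild-type arrays for 32 of 55 genes (58.2%), where 23.5% of all genes did. They lay above for 1 gene (1.82%), where 25.3% of all genes did. The largest differences towards a lower value in *med20Δ* were those of *REI1* (-2.14) and *RPF2* (-0.87). For *RPF2* the treated wild-type spot exceeded the unnamed spots on only 1 array. The direct comparison of treated strains did not show lower values of the assembly genes in *med20Δ*. After rapamycin, *med20Δ* over wild-type had a median of 0.14 (0.13 and 0.19), 0 of 54 assembly genes were lowered (1.81% of all genes were) and 0 were raised (2.11% of all genes were). Both arrays were above 0 for 36 of 54 genes, where 33.1% of all genes were, and below 0 for 2, where 33.1% of all genes were. With local background subtracted the median was 0.29. The 3 comparisons around it imply another value: the untreated strain ratio plus the response in *med20Δ* minus the response in wild-type had a median of -0.22. The derived minus the direct value had a median of -0.40 (n = 54 genes), against 0.04 for all genes. The same median was -0.23 for the 40S assembly factors, -0.19 for the other 60S factors and 0.43 for the large-subunit ribosomal protein (*RPL*) genes, so the routes also differed outside the 57 genes. The 4 comparisons may share RNA and were therefore set side by side with no test, and they leave the direction of the strain difference after rapamycin unsettled for these genes.

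**Figure D2:**
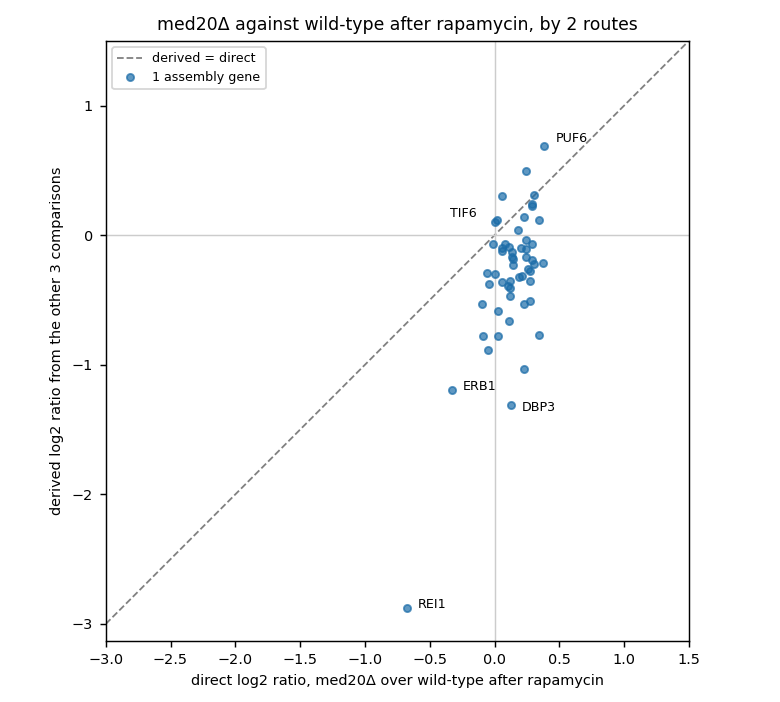
Log2 ratio of *med20Δ* over wild-type after rapamycin for 54 assembly genes, measured directly on 2 arrays (horizontal axis) and derived from the other 3 comparisons of the rapamycin experiment (vertical axis). Points on the dashed line would agree between the routes. Most points lie below the line, with a direct median of 0.14 and a derived median of -0.22, and *REI1* is farthest from the others.

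*REI1* showed the largest gap between the routes. Its derived value was -2.88 and its direct value -0.67, and the 2 direct arrays were at 0.84 and -2.18 and so had opposite signs. All of its spots were above the unnamed spots in the rapamycin experiment. In *ERB1* the derived value was lower as well, and the direct arrays had the same sign (-0.10 and -0.56). *DBP3* (YGL078C), an early helicase, was at -0.01 and -1.15 for rapamycin in *med20Δ* and at 0.01 and 0.05 in wild-type, and its direct arrays were at 0.53 and -0.27. The -1.15 comes from a treated spot that did not exceed the unnamed spots (net intensity 17.5, against 7356.5 on the array of replicate 1). Its untreated channel was also far weaker on that array (102, against 3554.5 on the array of replicate 1). The whole spot was thus weak there, and the -1.15 cannot be read as a fall in treated cells. The pairs of *REI1* and *DBP3* thus disagreed more than those of most genes. *PUF6*, *RLP24* and *NOP16* were the highest genes of the direct comparison with equal signs, at 0.39, 0.37 and 0.35. *ERB1* (-0.33) and *EBP2* (-0.09) were the only ones below 0 on both direct arrays. Across the 54 genes the 2 direct arrays correlated at r = -0.42 (genes of 1 array pair and not replicates). This value rests on *REI1*, and it was -0.12 over the other 53 genes, a choice made after seeing the data.

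Large-subunit assembly genes were then set beside related groups. The *RPL* genes, whose products the assembly factors handle, had a rapamycin median of -1.20 in *med20Δ* and -3.10 in wild-type, and a direct median of 1.35 with 51 of 73 raised. Their response in *med20Δ* was lower than in wild-type for 4 of 72 genes, with a median difference of 1.69, against 49 of 55 and -0.42 for the assembly genes. The small-subunit (40S) assembly factors had medians of -1.16 in *med20Δ* (40 of 65 lowered) and -0.85 in wild-type (18 of 65 lowered), and a median difference of -0.30. A further 28 large-subunit factors outside the 57 had medians of -0.84 in *med20Δ* (9 of 25 lowered) and -0.55 in wild-type (6 of 25 lowered). The listed genes of RNA polymerase I, which transcribes the precursor RNA, are its subunits and the initiation factor *RRN3*, and 7 of them were measured. They had medians of -2.03 in *med20Δ* (6 of 7 lowered) and -1.72 in wild-type (5 of 7 lowered). *RRN3* was lowered in neither strain (means of -0.32 in *med20Δ* and -0.25 in wild-type), and the subunit gene *RPA14* only in *med20Δ* (-1.13, against -0.81 in wild-type). The median difference between the strains thus had opposite signs in the 57 assembly genes and the *RPL* genes, and no test was made between the groups.

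**Figure D3:**
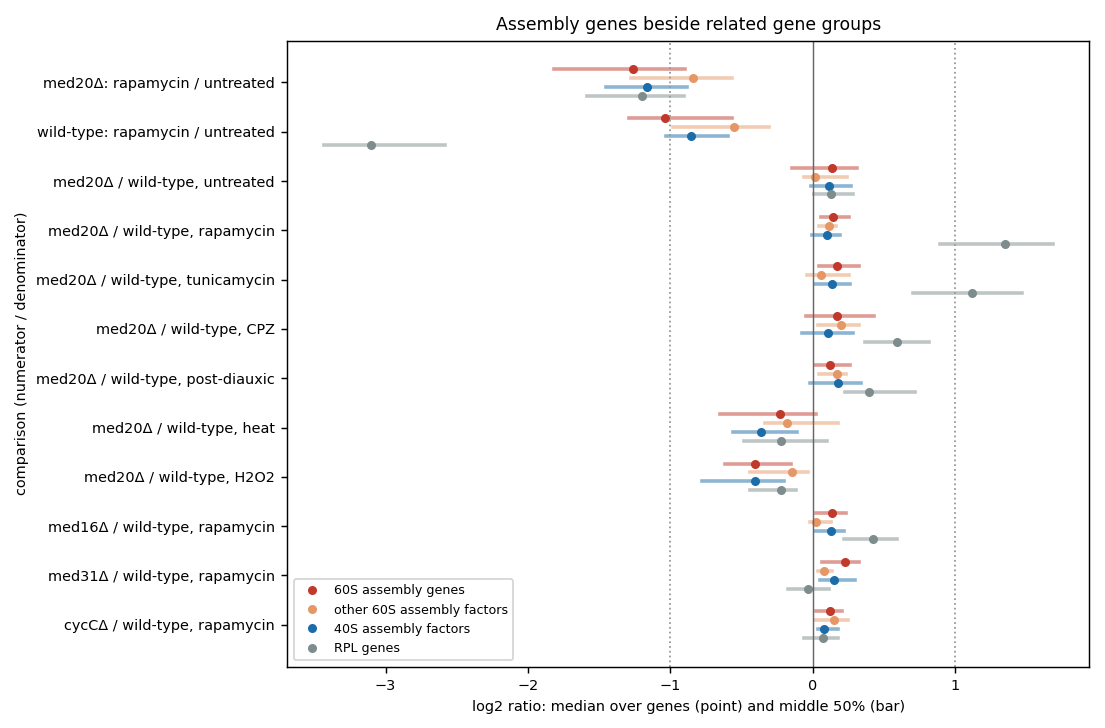
Median log2 ratio (points) and middle 50% of genes (bars) for the 60S assembly genes, the other 60S assembly factors, the 40S assembly factors and the *RPL* genes in the 12 comparisons. The *RPL* genes stand apart at -3.10 for rapamycin in wild-type and at 1.35 in *med20Δ* over wild-type after rapamycin, and the medians of the 3 assembly groups have the same sign as each other in each of the 12 comparisons.

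The 11 listed regulators of transcription tied to ribosome production (TOR kinases and *TAP42*, *SCH9*, *SFP1*, *STB3*, *DOT6*, *TOD6*, *RPD3*, *SIN3* and *MAF1*) moved little, and 10 of them were measured. *MAF1*, the repressor of RNA polymerase III, was the only one past 2-fold, at 0.99 and 1.61 in *med20Δ* and at 1.81 and 1.80 in wild-type. *DOT6*, a repressor of *Ribi* genes, was at 0.23 and 0.37 in *med20Δ* and at 0.56 and 0.52 in wild-type. *SFP1*, an activator of *Ribi* genes, was at 0.22 and 0.52 in *med20Δ* and at 0.15 and 0.29 in wild-type. In the direct comparison after rapamycin, 7 of the 10 were below 0 on both arrays, where 33.1% of all genes were, among them *MAF1* (-0.71 and -1.0).

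In untreated cells the strains were close. The median of the assembly genes in *med20Δ* over wild-type was 0.14 (0.10 and 0.22), none of 55 was lowered (0.683% of all genes) and none raised (0.245% of all genes). *NOP7* was highest, at 0.74 and 1.19 with a mean of 0.97 just short of 2-fold, followed by the early factors *PUF6* at 0.36 and 0.90 and *MAK5* at 0.20 and 0.96. *REI1* (-0.24 and -1.24), *DBP3* (-0.30 and -1.09) and *ERB1* (-0.52 and -0.70) were lowest. The 2 *NOP7* values both exceeded the median of the group, and the arrays of *ERB1* agreed better than those of *REI1* or *DBP3*.

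**Figure D4:**
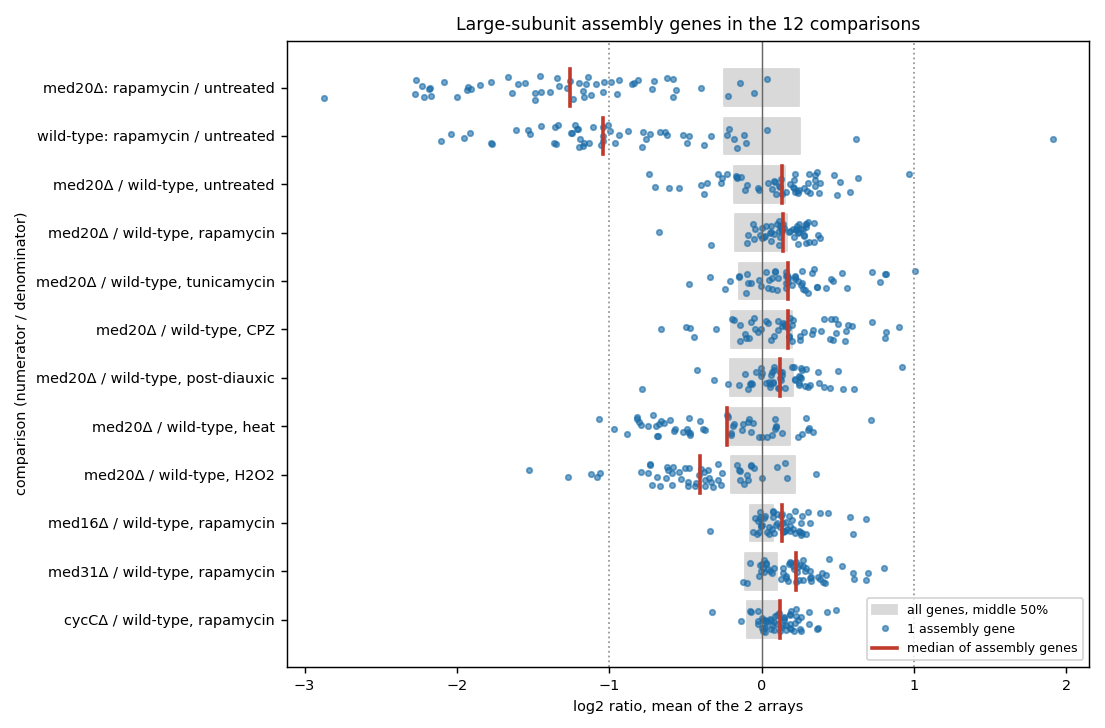
Mean log2 ratio (horizontal axis) of each assembly gene (points) in the 12 comparisons, with the median of the assembly genes (red line), the middle 50% of all genes (gray bar) and 2-fold (dotted lines). The medians are -1.26 and -1.04 for the rapamycin responses of *med20Δ* and wild-type, -0.41 and -0.23 for *med20Δ* over wild-type after H2O2 and heat, and between 0.12 and 0.22 in the other 8 comparisons.

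Among the 7 conditions in which *med20Δ* was set against wild-type, H2O2 and heat were those in which the assembly genes were lower in *med20Δ*. After H2O2 the median was -0.41 (-0.37 and -0.53), 36 of 54 genes were below 0 on both arrays (29.6% of all genes) and 1 was above (31.5% of all genes), and 5 of 54 were lowered, where 1.54% of all genes were. None was raised, where 2.83% of all genes were. *NOG2* was at -1.44 and -1.61, which is 2.88-fold lower, *MAK16* at -0.83 and -1.72, and *RSA4* at -0.91 and -1.32. *NIP7* was at -0.84 and -1.32 and *CGR1* at -1.13 and -1.0. The 5 genes belong to 4 different role groups, and *NOG2* alone was lowered 2-fold on each array (0.645% of all genes). In untreated cells *NOG2* (-0.55 and -0.24), *MAK16* (mean -0.11) and *CGR1* (mean -0.26) were already below 0 on both arrays, and *RSA4* and *NIP7* above. The array of replicate 1 alone would have given 2 lowered genes and that of replicate 2 alone 7. After heat the median was -0.23 (-0.24 and -0.30), 34 of 55 genes were below 0 on both arrays (31.2% of all genes) and 6 above (32.7% of all genes), and 1 gene was lowered, where 2.01% of all genes were. None was raised, where 0.823% of all genes were. That gene was again *NOG2*, at -1.03 and -1.11. *NIP7* (-0.99 and -0.96) and *NOG1* (-0.91 and -0.85) followed. The count after heat depended on the background correction: 8 genes passed 2-fold with local background subtracted and 5 with the deposited ratios. The share of all genes past 2-fold under these settings is not given, so these counts cannot be set against it. By role, the GTPases and intermediate factors were lowest after heat, with a median of -0.66, and the ITS2 factors after H2O2, with -0.61. The 40S assembly factors were also lower in *med20Δ*, with medians of -0.41 after H2O2 and -0.37 after heat, and the *RPL* genes had -0.22 in each. Of the 54 genes measured in both conditions, 28 were below 0 on all 4 arrays, a count given without its share over all genes.

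*MDN1* stood outside this pattern. It was the only assembly gene above 0 on both arrays after H2O2 (0.26 and 0.05), and after heat it was at 0.51 and 0.92, the highest of the 55. It was also the highest gene after tunicamycin (1.14 and 0.88) and after CPZ (0.84 and 0.97). *MDN1* was thus higher in *med20Δ* on both arrays in 6 of the 7 conditions, the exception being the post-diauxic culture (-0.32 and 0.16). In untreated cells, which are among these conditions, *MDN1* was already at 0.34 and 0.60. *PUF6* was also above 0 on both arrays in 6 of the 7 conditions, and its exception was H2O2 (mean -0.43). Both counts are given without their share over all genes, and every condition compares the same pair of strains.

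Tunicamycin, which blocks glycosylation in the endoplasmic reticulum, and CPZ, a membrane-active phenothiazine, gave small positive medians. After tunicamycin the median was 0.17 (0.20 and 0.15), *MDN1* was the 1 gene of 54 raised (1.86% of all genes were), and none was lowered (0.743% of all genes were). *NOP2* (0.91 and 0.72) and *NUG1* (1.15 and 0.47) came next, and *HAS1* (-0.26 and -0.69) and *EBP2* (-0.19 and -0.49) were lowest. After CPZ the median was 0.17 (0.10 and 0.20), and no gene of 55 was raised (1.14% of all genes were) or lowered (2.16% of all genes were). With local background subtracted, and likewise with the deposited ratios, 6 genes passed 2-fold after CPZ, a count given without the share of all genes. *NOP7* (1.16 and 0.47) and *NIP7* (0.70 and 0.92) followed *MDN1*, and *DBP3* (-0.34 and -0.99), *REI1* (-0.89 and -0.10) and *RRS1* (-0.55 and -0.38) were lowest. *NOP7* and *NIP7* were thus higher in *med20Δ* with these 2 agents and lower after heat, where *NOP7* was at -0.67 and -0.97. The *RPL* genes had medians of 1.12 after tunicamycin and 0.59 after CPZ, above those of the assembly genes. In post-diauxic cultures the median was 0.12, but the arrays gave -0.05 and 0.25, and 32 of 55 genes had opposite signs on the 2 arrays, as 44.1% of all genes did. No gene was lowered there (1.98% of all genes) or raised (0.892% of all genes). *RSA3* (0.89 and 0.94) and *DRS1* (0.30 and 0.92) were highest and *DBP10* (-1.10 and -0.47) and *MAK21* (-0.33 and -0.52) lowest.

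**Figure D5:**
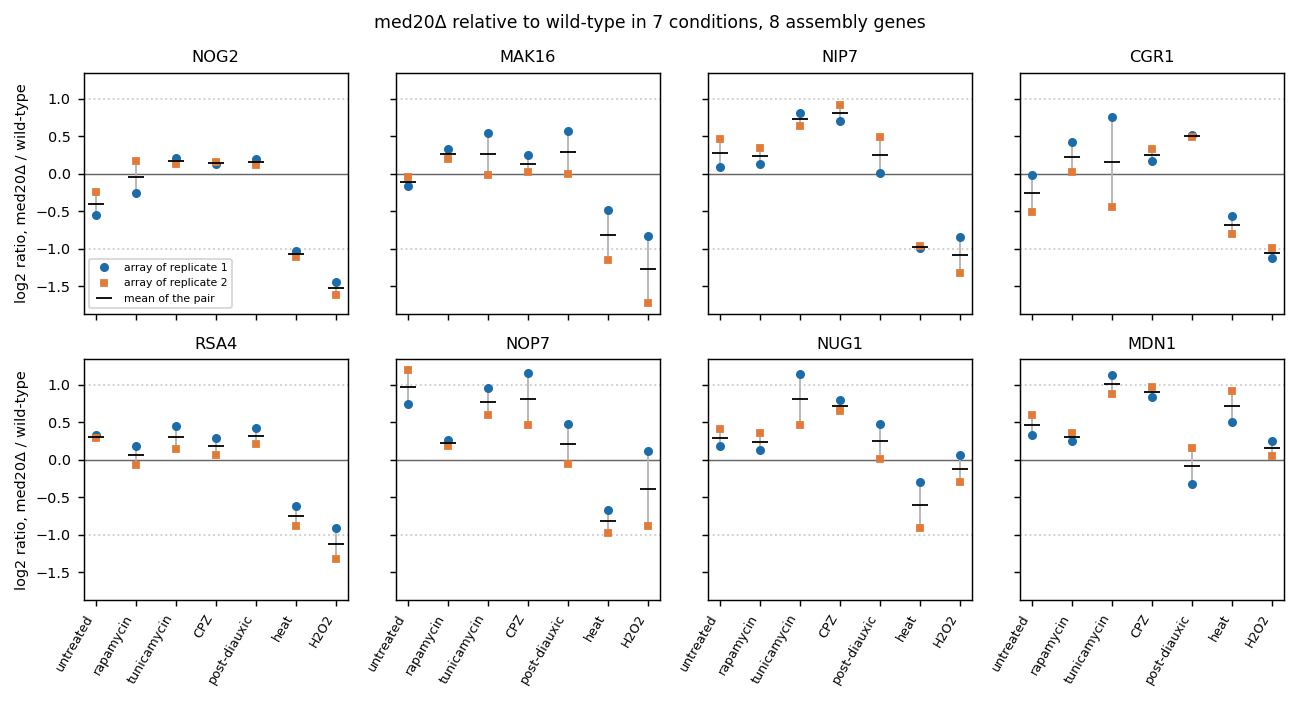
Log2 ratio of *med20Δ* over wild-type (vertical axis) in 7 conditions (horizontal axis) for 8 assembly genes, with circles and squares for the arrays of replicates 1 and 2, black lines for their mean and dotted lines at 2-fold. *NOG2*, *MAK16*, *NIP7*, *CGR1* and *RSA4* lie below 0 on both arrays after heat and H2O2, and *MDN1* lies above 0 there.

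In the other Mediator deletions the assembly genes had positive medians after rapamycin, all under 0.3. The median over wild-type was 0.13 in *med16Δ* (0.06 and 0.16), 0.22 in *med31Δ* (0.16 and 0.26) and 0.12 in *cycCΔ* (0.07 and 0.15). No assembly gene was lowered in *med16Δ* (0.101% of all genes), *med31Δ* (0.742% of all genes) or *cycCΔ* (0.243% of all genes), and none was raised in *med16Δ* (0.135% of all genes), *med31Δ* (0.101% of all genes) or *cycCΔ* (0.398% of all genes). Both arrays were above 0 for 38 of 55 genes in *med16Δ* (26% of all genes), for 41 in *med31Δ* (26.5% of all genes) and for 32 in *cycCΔ* (27.1% of all genes). Many spots were dim here. In rapamycin-treated wild-type, *CGR1* had a net intensity of 1 on both *med16Δ* arrays, against 419 and 773 on the direct *med20Δ* arrays. A dim spot on these arrays therefore need not mean low expression, and the cause was not tested. In both channels, 9 genes in *med16Δ*, 12 in *med31Δ* and 16 in *cycCΔ* did not exceed the unnamed spots, and without them, a choice made after seeing the data, the medians were 0.16, 0.27 and 0.16. With local background subtracted the medians were 0.49, 0.59 and 0.38, so the size of the difference depends on how background is treated. Under that setting 7 genes passed 2-fold in *med31Δ*, a count given without the share of all genes.

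*RLP7* and *NMD3* were among the 3 highest genes with equal signs in each of the 3 strains. *RLP7*, an ITS2 factor that resembles a ribosomal protein, was at 0.61 and 0.76 in *med16Δ*, at 0.78 and 0.62 in *med31Δ* and at 0.34 and 0.52 in *cycCΔ*. *NMD3* was at 0.66 and 0.53 in *med16Δ*, at 0.76 and 0.61 in *med31Δ* and at 0.54 and 0.44 in *cycCΔ*. *NOP2* was at 0.34 and 0.53 in *med16Δ*, at 0.66 and 0.94 in *med31Δ* and at 0.15 and 0.35 in *cycCΔ*. *NIP7* came after *RLP7* and *NMD3* in *med16Δ*, at 0.56 and 0.60, and was lower in *cycCΔ*, at 0.03 and 0.36. *REI1* was at -0.18 and -0.50 in *med16Δ*, at -0.16 and -0.09 in *med31Δ* and at -0.12 and -0.15 in *cycCΔ*, and so was below 0 on all 6 arrays. *ERB1* was lowest in *cycCΔ*, at -0.19 and -0.47. In the direct *med20Δ* comparison *RLP7* was at 0.18 and 0.30 and *NMD3* at 0.19 and 0.36, also positive on each array.

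Some assembly genes lie beside one another on the chromosome. Of the 57 genes, 7 (12.3%) had another 60S or 40S assembly gene as direct neighbor in the reference annotation, where 5.53% of the 5783 array genes with a place in that table did. *SSF1* and the 40S helicase gene *RRP3* are divergent, that is, head to head, with their start sites on either side of a shared intergenic region. *SSF1* had a rapamycin mean of -1.28 in *med20Δ* and -1.21 in wild-type, and *RRP3* of -1.16 in *med20Δ* and -0.80 in wild-type. *NSA2* and *LCP5* are divergent as well. *NSA2* had a rapamycin mean of -1.04 in *med20Δ* and -0.78 in wild-type, and *LCP5* of -0.76 in *med20Δ* and -0.13 in wild-type. Both divergent pairs were below 0 in both strains, with *LCP5* close to 0 in wild-type. The other 5 genes were *NOG2*, *RIX1*, *RSA3* and *NMD3*, on the same strand as their neighbor, and *RIX7*, convergent with its neighbor.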

How the data were processed

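The data are 24 two-color arrays, 2 dye-reversed arrays per comparison, grouped by strain, treatment and dye from their labels. The authors labeled poly(A)+ RNA and deposited, per spot, Cy5 and Cy3 foreground and background intensity, a normalized log10 ratio (also in a series table, which matched it with a largest difference of 0 when ORF spots were taken in array order), and a flag, which is an other-type column whose codes are not stated. The authors' error and p-value columns were not used. The scanner, image software and genome build are not given in the sources used here. For CPZ the labels and the methods give the dose in different units, so no dose is stated. The arrays' number and the intensities limit the precision, and the median net intensity per channel was 82.5 to 1072.5.

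Only spots flagged 1 were used, without the 576 control spots among 6912. Background was corrected by normexp (offset 50), and log2 ratios computed from the deposited intensities were normalized within array by loess (limma 3.58.1, R 4.3.3), turned so that the deletion strain or treated cells are the numerator, and averaged over the pair (Python 3.11.15, pandas 2.3.3, numpy 2.4.6, figures with matplotlib 3.10.9). Spots were called above background if brighter, net of local background, than 95% of the 29 unnamed ones in that channel. The pair counted as 1 replicate, since separate cultures are not stated, so 2-fold on the mean was the call and no test enters the results; limma with each array as a sample was an alternative only. The procedure was tested on simulated data.

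Genes were found by array alias (28 of 57) or by the R64 RefSeq gene table (29), which matched 5801 of 6307 ORFs and also gave the neighbors. The rule for the 57 genes uses names alone, but it and the lists were drawn up with earlier results of these data known. The rule was to name, per comparison, the 3 highest and 3 lowest assembly genes with equal signs on both arrays, where so many exist. Fixed sets were added (Nop7 complex, 5S pair, GTPases, export factors, *SSF1* and *SSF2*, *MAK21*, *MAK16*). The text does not name all of these genes in every comparison, and *URB1* and *DRS1* after heat are examples of genes left out. Other genes were named after their values were seen. Alternatives were other background corrections and normalizations, the deposited normalized log10 ratios, the flag and intensity filters, other call rules and each array alone.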

Additional observations from a re-analysis of the deposited data

Results flagged for a closer look

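Some results are listed because both arrays of one comparison lay above 0 and both arrays of another lay below 0. None of these differences was tested. The median of the assembly genes in *med20Δ* over wild-type was -0.41 after H2O2 and -0.23 after heat, and it was 0.14 in untreated cells, 0.14 after rapamycin, 0.17 after CPZ and 0.17 after tunicamycin.

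The genes listed next are those lowered 2-fold after H2O2, and they are part of that median, so their contrast is not independent of it. *NOG2* was at -1.53 after H2O2 and -1.07 after heat, and at 0.14 after CPZ, 0.15 in post-diauxic cultures and 0.17 after tunicamycin, while untreated cells were at -0.40. *MAK16* was at -1.27 after H2O2, and at 0.13 after CPZ and 0.26 after rapamycin, with -0.11 untreated. *RSA4* was at -1.12 after H2O2, and at 0.18 after CPZ, 0.32 in post-diauxic cultures, 0.30 after tunicamycin and 0.31 untreated. *NIP7* was at -1.08 after H2O2, and at 0.81 after CPZ, 0.24 in post-diauxic cultures, 0.24 after rapamycin, 0.72 after tunicamycin and 0.28 untreated. *CGR1* was at -1.06 after H2O2, and at 0.25 after CPZ, 0.50 in post-diauxic cultures and 0.23 after rapamycin, with -0.26 untreated. *NOG2*, *MAK16* and *CGR1* were thus below 0 on both arrays without treatment as well.

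In the response to rapamycin, *REI1* was at -0.22 in *med20Δ* and 1.91 in wild-type, and *DBP3* was at -0.58 in *med20Δ* and 0.033 in wild-type, which is close to 0. The *DBP3* mean in *med20Δ* includes a treated spot that did not exceed the unnamed spots on the array of replicate 2. The untreated channel of that spot was also far weaker than on the array of replicate 1. With 2 arrays per comparison, equal signs on both arrays are frequent, as the counts over all genes show: in the untreated comparison 1878 of 5714 genes were above 0 on both arrays and 1840 below.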

How the results depend on the processing

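No median changed sign under another background correction, normalization, flag or intensity filter. Of 636 alternative values of 72 named results, 552 moved by less than the spread between arrays, and 8 changed sign, all with a size of 0.033 or less as reported. Local background subtraction changed the medians to -1.99 (rapamycin in *med20Δ*), -1.61 (rapamycin in wild-type), 0.29 (*med20Δ* over wild-type after rapamycin), 0.29 (CPZ), -0.33 (heat), 0.49 (*med16Δ*), 0.59 (*med31Δ*) and 0.38 (*cycCΔ*). The deposited ratios gave -1.93, -1.63 and 0.38 for the first 3, 0.22 (post-diauxic), 0.49 (*med16Δ*), 0.58 (*med31Δ*) and 0.36 (*cycCΔ*). Median centring gave -0.34 (heat), leaving out the dimmest 25% gave -1.13 (rapamycin in wild-type), and no background correction gave 0.38 (*med31Δ*) and 0.27 (*cycCΔ*). The cause was not tested.

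Counts past 2-fold with local background subtracted were 1 (untreated), 1 (*med20Δ* over wild-type after rapamycin), 6 (CPZ), 2 (tunicamycin), 8 (heat), 1 (post-diauxic), 4 (*med16Δ*), 7 (*med31Δ*) and 1 (*cycCΔ*). With the deposited ratios they were 1 (untreated), 1 (rapamycin), 6 (CPZ), 5 (heat), 3 (*med16Δ*), 8 (*med31Δ*) and 1 (*cycCΔ*). Median centring gave 0 (tunicamycin), 2 (heat) and 1 (post-diauxic), no background correction gave 2 (heat) and 2 (*med31Δ*), and keeping all flags gave 1 (rapamycin). Requiring 2-fold on both arrays left 0 (tunicamycin) and 1 (H2O2). At 1.5-fold the counts were 5 (untreated), 1 (rapamycin), 6 (CPZ), 5 (tunicamycin), 17 (H2O2), 17 (heat), 3 (post-diauxic), 2 (*med16Δ*) and 5 (*med31Δ*). No share of all genes is given for the counts in this paragraph or for those with 1 array left out. They show only how the counts depend on the setting.

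With 1 array left out, the medians ranged from -1.28 to -1.22 (rapamycin in *med20Δ*), -1.07 to -0.93 (rapamycin in wild-type), -0.53 to -0.37 (H2O2) and -0.0498 to 0.25 (post-diauxic, where the sign turned without replicate 2). Counts ranged from 0 to 4 (untreated), 0 to 1 (*med20Δ* over wild-type after rapamycin), 1 to 1 (CPZ), 0 to 2 (tunicamycin), 2 to 7 (H2O2), 1 to 2 (heat) and 1 to 1 (post-diauxic). The median difference between the strains in the rapamycin response ranged from -0.41 to -0.35.

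The labels number the arrays 1 and 2 in every comparison. Deviations of same-numbered arrays correlated between -0.54 and 0.80 over 66 pairs of comparisons (median 0.06). The numerator was in Cy3 on arrays numbered 1, except in the rapamycin responses of both strains, where it was in Cy5. The number thus largely follows dye orientation, and the correlations cannot show whether it pairs samples. A block by replicate number therefore largely follows the dyes too. In limma, taking each array as a sample, with the replicate number as a block 46 assembly genes (rapamycin in *med20Δ*, 28% of all genes), 44 (rapamycin in wild-type, 30.4%), 24 (H2O2, 20.1%), 20 (heat, 12.8%), 10 (CPZ, 15.3%), 7 (tunicamycin, 7.07%), 6 (untreated, 4.13%), 4 (post-diauxic, 16.5%), 3 (*med31Δ*, 3.03%), 1 (*med16Δ*, 0.43%), 1 (*cycCΔ*, 2.28%) and 0 (*med20Δ* over wild-type after rapamycin, 11.7%) passed an adjusted p of 0.05. Without the block 46, 44, 22, 19, 9, 5, 3, 3, 2, 1, 1 and 0 did in the same order, so the block moved the untreated count by over 1.5 times. The shares of all genes without the block were 26.3, 29.2, 18.7, 11.4, 14.2, 6.22, 3.15, 14.3, 2.68, 0.447, 2.08 and 10.6% in that order. For *med20Δ* over wild-type after rapamycin, 5 of 55 had an unadjusted limma p under 0.05 with the block (24.2% of all genes) and 3 without it (22.6% of all genes). The planned count of promoter motifs was not run, as no promoter sequences were used here.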
